A study of Mus musculus with 6 samples.

Results

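The mRNAs described here encode proteins that store, move and buffer iron and other metals, namely Fth1, Ftl1, Tfrc, Trf, Slc40a1, Slc11a2, Hmox1, Mt1, Mt2 and Mt3. They were found by mapping the Ensembl gene IDs of the deposited tables to these symbols, which gave all 10 genes among the 18437 mRNAs listed in any library. Ribo-seq, which reads out the stretches of mRNA that ribosomes cover, had been performed on heart, lung, kidney, brain, small intestine and colon of untreated wild-type C57BL/6J mice at an age of 4 weeks, and each tissue gave 1 library. The labels do not say how many mice went into a library. Values are RPKM, reads on the coding sequence (CDS) divided by CDS length and by the total of the library, and are called ribosome density. Ribosome density rises with the amount of an mRNA and with the ribosomes on each copy, and these cannot be told apart from these values alone.

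Ferritin, a shell built of heavy (Fth1) and light (Ftl1) chains, stores iron inside cells. Transferrin (Trf) carries iron in plasma and brain fluid, the transferrin receptor (Tfrc) takes it up, Slc11a2 (DMT1) moves iron out of endosomes and across the gut surface, and ferroportin (Slc40a1) is the iron exporter of the cell. Heme oxygenase 1 (Hmox1) releases iron from heme, and metallothioneins (Mt1, Mt2, Mt3) bind zinc and copper through their many cysteines. In iron-poor cells, iron regulatory proteins bind a stem-loop named the iron-responsive element, which blocks translation when it lies in a 5′ UTR and protects the mRNA when it lies in a 3′ UTR.

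The iron-responsive element is shown because it sets the storage and export mRNAs apart from the receptor mRNA. The pattern searched was CNNNNNCAGTGN, followed by 5 bases that pair with the 5 bases after the first C, with G-T pairs allowed, on the mRNA strand of the counted transcript. It was found 7 times in 4 of the 10 members. Other transcripts of these genes, those of Slc11a2 included, were not searched, so an element found only there would be missed. An element with another loop or with an unpaired base among the 5 pairs would be missed too, in members and other genes alike. A match in the 5′ UTR was present in 0.110% of 18243 mRNAs, and a match in the 3′ UTR in 0.647%. The first C and the loop with its next base are in capitals, and positions are in GRCm39. These 3 lie in the 5′ UTR.
Fth1, chr19:9960095-9960124, plus strand: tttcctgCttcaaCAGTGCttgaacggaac
Ftl1, chr7:45109203-45109232, minus strand: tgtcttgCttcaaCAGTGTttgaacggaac
Slc40a1, chr1:45964625-45964654, minus strand: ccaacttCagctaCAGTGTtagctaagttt

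The matches began 132 bases before the start codon in Fth1, 170 in Ftl1 and 224 in Slc40a1. Tfrc had 4 matches in its 3′ UTR, all on the plus strand, beginning between 889 and 1380 bases after the stop codon.
Tfrc, chr16:32450036-32450065: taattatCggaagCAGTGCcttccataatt
Tfrc, chr16:32450415-32450444: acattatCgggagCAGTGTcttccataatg
Tfrc, chr16:32450480-32450509: tctatatCggagaCAGTGAtctccatatgt
Tfrc, chr16:32450527-32450556: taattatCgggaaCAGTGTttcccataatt

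Of the other genes on the iron, heme, zinc and copper lists, Alas2, the first enzyme of heme synthesis in red blood cell precursors, also had the pattern in its 5′ UTR. A match is a description of letters, and the values below do not measure binding to it.

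The product of RPKM and CDS length was divided by its smallest non-zero value in the library, taken as 1 read. The result was a whole number of reads (within 0.01 of a read) for 100% of values in each of the 6 libraries. Between 4504853 and 10635031 reads lay on CDSs. Intervals are exact Poisson 95% intervals for levels and exact Clopper-Pearson 95% intervals for ratios. They cover counting error only, since there is 1 library per tissue and PCR reads without molecular identifiers are not independent molecules. Tissues were not tested against each other for the same reason. An mRNA without reads is given with the RPKM of 3 reads, used as a floor. The exact 95% interval of 0 reads reaches higher, for Slc40a1 in the lung-labelled library to 0.279 RPKM against a floor of 0.227 RPKM. Folds given as at least are set against this floor and are not lower limits of a 95% interval. Kri1, a single mRNA, took 22.1% of the reads in the kidney-labelled library and 14.1% in the small-intestine-labelled one, against 0.400% to 6.79% in the others.

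Markers went against 4 of the 6 labels. All 5 enterocyte markers were highest in the brain-labelled library, and all 3 neuron and 5 oligodendrocyte markers in the small-intestine-labelled one. All 3 kidney tubule markers were highest in the colon-labelled library, and all 3 markers listed for colon (Muc2, Fcgbp, Car1) in the kidney-labelled one. The 3 heart muscle markers and the 3 lung epithelium markers were highest under their own labels. The libraries are named by their labels throughout, and comparisons that rest on the other 4 labels are given beside the libraries labelled heart and lung alone.

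**Figure D1:**
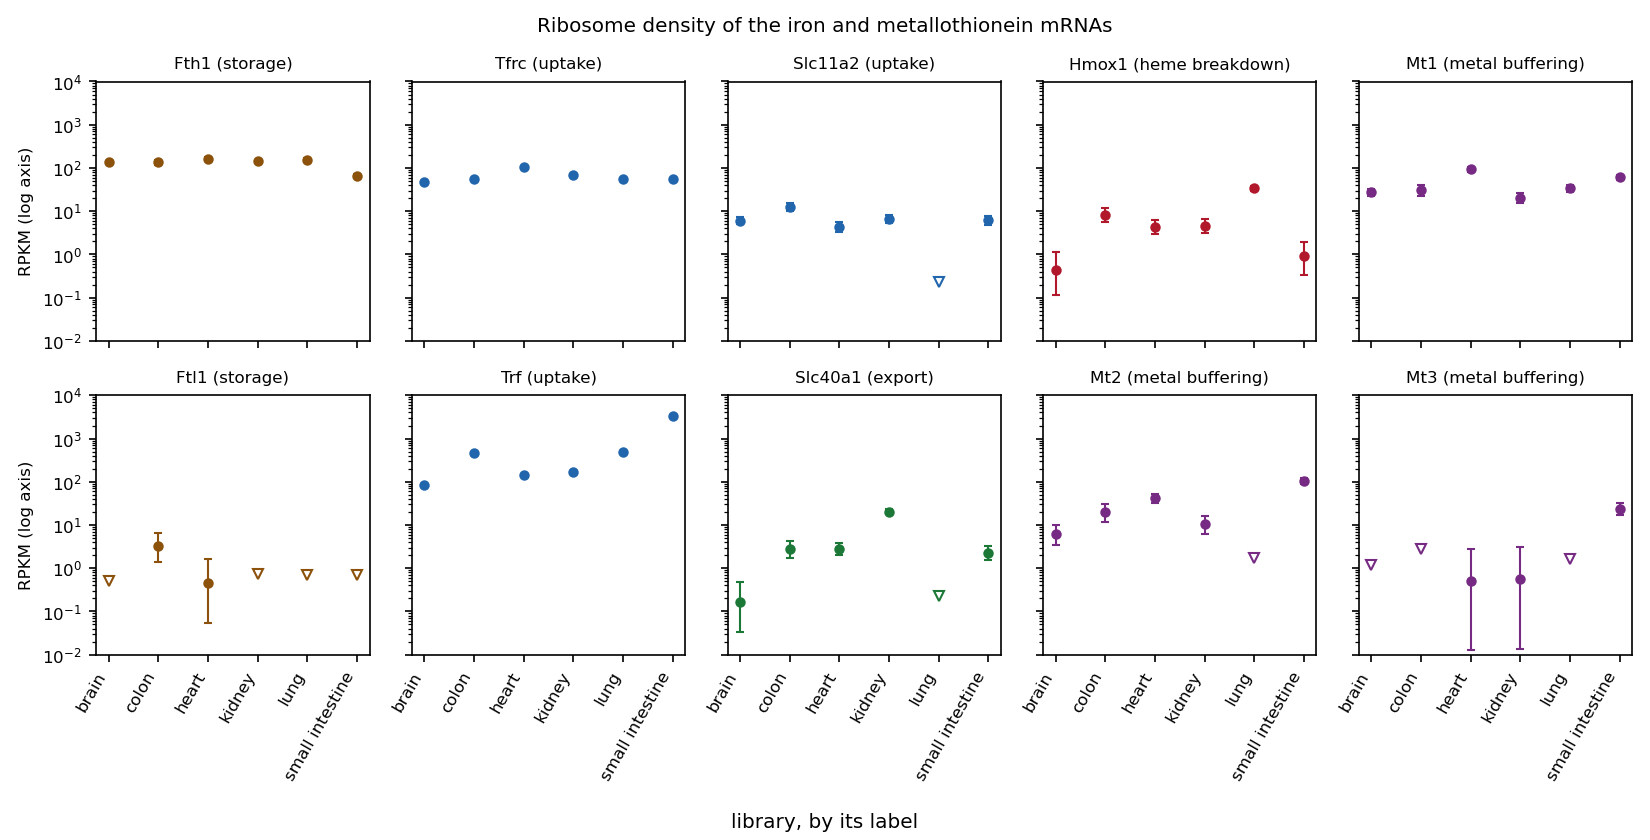
Ribosome density (RPKM, log axis) of the 10 members in the 6 libraries, named by label. Points are single libraries with exact Poisson 95% intervals of counting error, and open triangles stand at the RPKM of 3 reads where a library had no reads. Fth1 and Tfrc stayed within 2.47-fold and 2.24-fold over the libraries, while Trf reached 3241 RPKM in the small-intestine-labelled library.

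By counted level, storage was led by Fth1, which varied little. Fth1 (chr19:9957911-9962462, plus strand) encodes the heavy chain, which oxidises iron for storage. Fth1 had 137 RPKM in the brain-labelled library, 134 in the colon-labelled one, 163 in the heart-labelled one, 143 in the kidney-labelled one, 154 in the lung-labelled one and 65.9 in the small-intestine-labelled one. The first 5 formed an unbroken chain of neighbours with overlapping intervals, and the small-intestine-labelled library lay apart at 0.462 of the median of the others. The heart-labelled library was 1.21-fold (95% interval 1.06 to 1.39) over the colon-labelled one. The rank of Fth1 among mRNAs with reads was at the 89.4th to 95.4th percentile. By the order of levels the heart-labelled library was highest, and with Kri1 left out of the totals, or in TPM, the kidney-labelled one was. In bulk tissue, fewer cells of a type and less RNA per cell cannot be told apart.

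Ftl1 (chr7:45107367-45109308, minus strand), the light chain that helps build the iron core, was almost absent from the counts. It had 8 reads in the colon-labelled library, at 3.23 RPKM (95% interval 1.40 to 6.37), and 2 reads in the heart-labelled one, at 0.445 RPKM. The kidney-labelled library listed it at 0, and those labelled brain, lung and small intestine did not list it. In these 4 libraries 3 reads would give 0.514 to 0.721 RPKM. Ftl1 was therefore left out of the counts over mRNAs with at least 100 reads.

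Most of the Ftl1 CDS could not be counted. Ftl1-ps1, a second listed gene on chromosome 13 of GRCm39 that was examined after the Ftl1 values were seen, differs from Ftl1 at 2 of 549 CDS bases. These are G468A and G504A, counted from 1 at the A of the start codon, with the Ftl1 base first. They are shown because only fragments that cover one of them tell the genes apart, with the differing base in capitals.
Ftl1, bases 453 to 482: cctccgcagggtggcGgggccacaaccagc
Ftl1-ps1, bases 453 to 482: cctccgcagggtggcAgggccacaaccagc
Ftl1, bases 489 to 518: tggcgcgccccagggGtctctgggcgagta
Ftl1-ps1, bases 489 to 518: tggcgcgccccagggAtctctgggcgagta

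Of the 522 windows of 28 nt in the Ftl1 CDS, close to the length of a ribosome footprint, 56 (10.7%) occurred in no other listed mRNA, and the Methods exclude reads that map to several places. Ftl1-ps1 was listed at 0 in the brain-labelled library, was not listed in the other 5, and had 0 reads in all 6. For the other 9 members, 100% of the windows were found in no other listed mRNA. The Ftl1 level thus divides reads from a small part of the CDS by its whole length.

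Between the ferritin chains, the counted level of Fth1 exceeded that of Ftl1 in every library. The ratio of RPKM was 41.5 (95% interval 20.8 to 96.9) in the colon-labelled library and 366 (100.96 to 3028) in the heart-labelled one, from 8 and 2 Ftl1 reads. In the 4 libraries without Ftl1 reads it was at least 92.2 to 267. Counted per window that occurs in no other mRNA, the ratio was 4.45 in the colon-labelled library and 39.3 in the heart-labelled one, and at least 9.89 to 28.6 in the other 4. The size of the ratio thus moved 9.32-fold with the length used. Both versions use the same few Ftl1 reads, and the second assumes even coverage of the CDS. It is therefore no separate check of the direction.

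**Figure D2:**
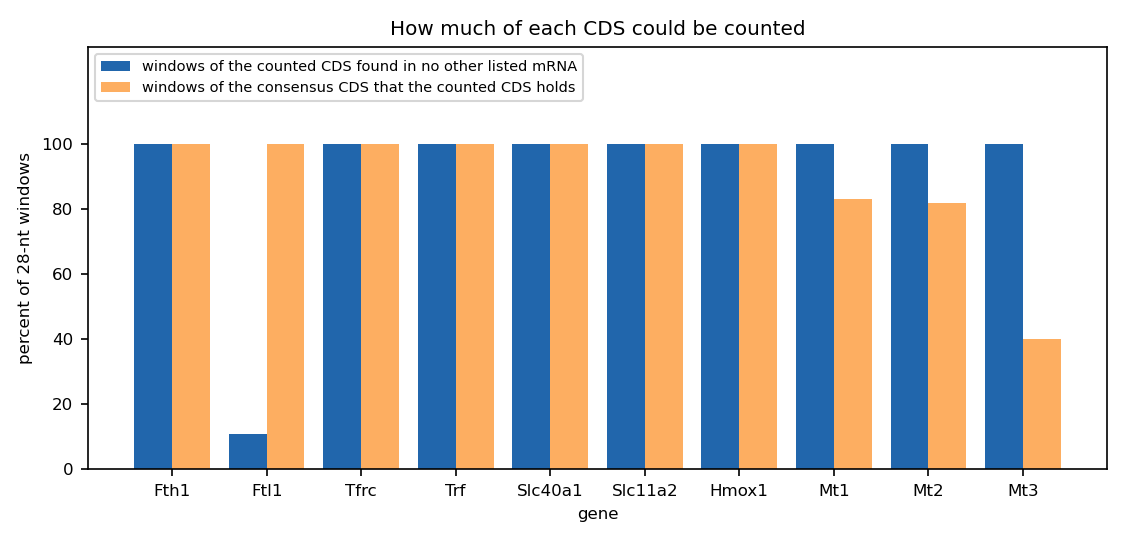
Percent of the 28-nt windows of each counted CDS that occur in no other listed mRNA (blue), and percent of the windows of the consensus CDS that the counted CDS holds (orange), for the 10 members. Ftl1 stands at 10.7% for the first, and Mt1, Mt2 and Mt3 at 83.3%, 82.1% and 40.1% for the second.

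Of the uptake mRNAs, Tfrc varied least and Trf had the highest levels. Tfrc (chr16:32427556-32451612, plus strand) had 47.7 RPKM in the brain-labelled library, 55.5 in the colon-labelled one, 106.9 in the heart-labelled one, 68.4 in the kidney-labelled one, 56.4 in the lung-labelled one and 55.4 in the small-intestine-labelled one. The heart-labelled library was highest, at 1.93 times the median of the others, and its interval of 102 to 112 RPKM lay apart from all others. The libraries labelled lung, colon and small intestine had overlapping intervals. The highest was 2.24-fold (95% interval 2.08 to 2.41) over the lowest.

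Trf (chr9:103081200-103107814, minus strand) encodes the iron carrier, which hepatocytes secrete into plasma and which oligodendrocytes and choroid plexus make in brain. Trf had 86.1 RPKM in the brain-labelled library, 474 in the colon-labelled one, 142 in the heart-labelled one, 168 in the kidney-labelled one, 500 in the lung-labelled one and 3241 in the small-intestine-labelled one. All 6 intervals lay apart. In the small-intestine-labelled library it ranked 21st of 15028 mRNAs with reads, with 51804 reads, 19.3-fold over the median of the others and 6.48-fold (6.33 to 6.64) over the lung-labelled library.

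Markers of brain cells stood high in the same library as Trf. The summed level of 5 oligodendrocyte markers was 5308 RPKM there and 12.1 to 46.0 RPKM in the other 5 libraries, and each of the 5 was highest there. Mog, a defining oligodendrocyte marker, had 648 RPKM there and no reads in 4 of the other libraries. The 3 choroid plexus markers did not move as a group: Ttr was highest in that library at 1819 RPKM, while Kl and Folr1 were highest in the colon-labelled one, and their sum was 12.8 to 841 RPKM in the other libraries. The 3 liver markers summed to 44.5 RPKM in the small-intestine-labelled library and to 4.32 to 652 RPKM elsewhere, with Serpina1a without reads in 4 libraries. The part of any cell type in the Trf level was not tested.

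Slc11a2 (chr15:100285776-100322953, minus strand) was low wherever it was found. It had 6.01 RPKM in the brain-labelled library, 12.8 in the colon-labelled one, 4.37 in the heart-labelled one, 6.73 in the kidney-labelled one and 6.14 in the small-intestine-labelled one, and it was not listed in the lung-labelled one, where 3 reads would give 0.228 RPKM. The colon-labelled library lay apart from the rest, 1.90-fold (95% interval 1.41 to 2.56) over the kidney-labelled one and at least 56.1-fold over the lung-labelled one. The kidney-, small-intestine-, brain- and heart-labelled libraries overlapped with their neighbours in the order. Its value of 0 in the lung-labelled library belongs to a group of such values. Of 4571 mRNAs over 4 RPKM in each of the other 5 libraries, 91 (1.99%) had no reads in the lung-labelled one, Slc11a2 and Mt2 among them, against 1 of 4548 in the heart-labelled one and 113 of 4760 in the brain-labelled one.

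Export rested on Slc40a1 (chr1:45947211-45965683, minus strand), which was highest in the kidney-labelled library. It had 0.165 RPKM in the brain-labelled library, from 3 reads, 2.73 in the colon-labelled one, 2.79 in the heart-labelled one, 20.5 in the kidney-labelled one and 2.29 in the small-intestine-labelled one. It was not listed in the lung-labelled one, where 3 reads would give 0.227 RPKM. The kidney-labelled library was 7.36-fold (95% interval 5.24 to 10.6) over the heart-labelled one, the next in order, and the libraries labelled heart, colon and small intestine overlapped. Duodenal enterocytes and macrophages are known for ferroportin. The 5 enterocyte markers summed to 29215 RPKM in the brain-labelled library and to 1327 RPKM in the kidney-labelled one. The 5 macrophage markers summed to 94.5 RPKM in the kidney-labelled library, 88.8 RPKM in the heart-labelled one and 19.0 to 84.9 RPKM in the others. Of these 5, only Adgre1 was highest in the kidney-labelled library. The part of these cell types in the Slc40a1 level was not tested.

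The exporter was below the receptor in every library. The ratio of Tfrc to Slc40a1 was 3.33 (95% interval 2.92 to 3.82) in the kidney-labelled library, 20.3 (13.2 to 33.1) in the colon-labelled one, 24.2 (16.8 to 36.0) in the small-intestine-labelled one and 38.4 (27.97 to 54.1) in the heart-labelled one. It was 289 (98.8 to 1405) in the brain-labelled library and at least 249 in the lung-labelled one. The interval of the kidney-labelled library lay below those of the others. The ratio of Tfrc to Fth1, receptor to storage, was below 1 in all 6 libraries and ran from 0.348 (0.318 to 0.382) in the brain-labelled library to 0.841 (0.735 to 0.965) in the small-intestine-labelled one. In that library Fth1 was lowest, while Tfrc overlapped with those labelled colon and lung.

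**Figure D3:**
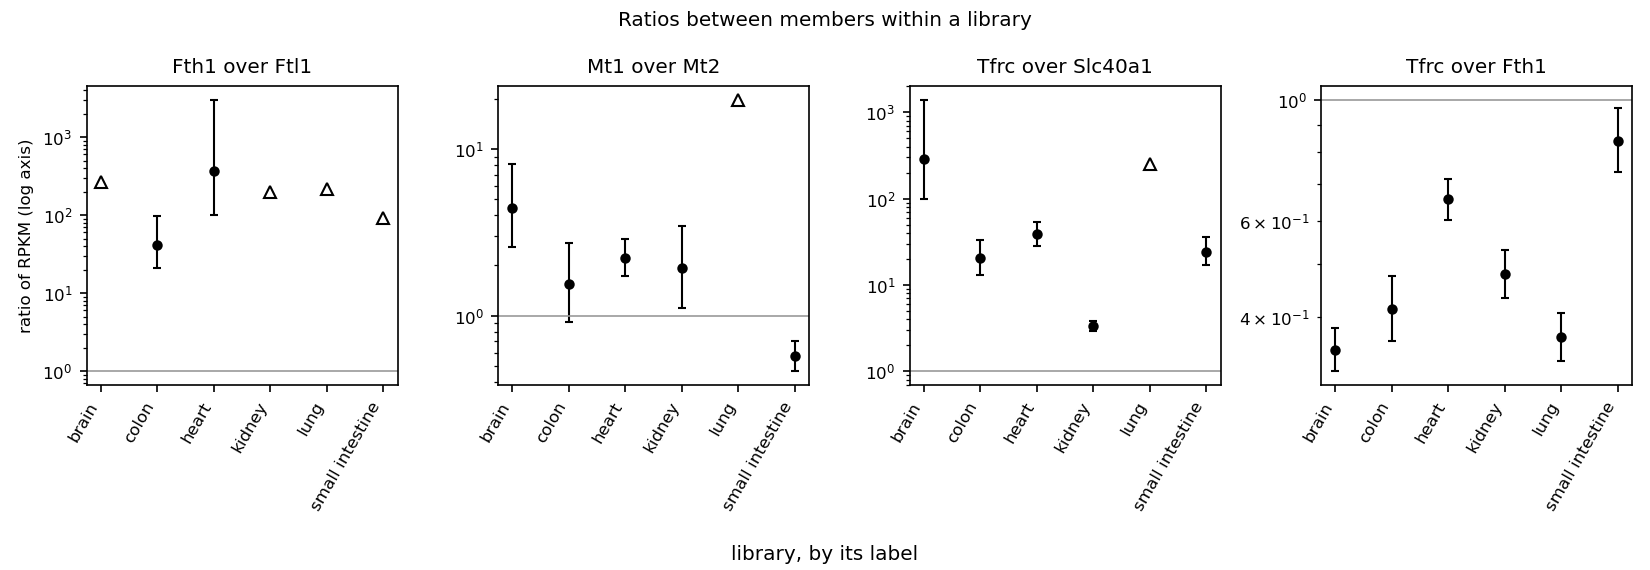
Ratios of RPKM (log axes) of Fth1 over Ftl1, Mt1 over Mt2, Tfrc over Slc40a1 and Tfrc over Fth1 in the 6 libraries, with exact Clopper-Pearson 95% intervals. Open triangles are lower bounds where the second mRNA had no reads, and the grey line is a ratio of 1. Mt1 over Mt2 is lowest in the small-intestine-labelled library, at 0.573 per counted CDS length and 0.995 per consensus CDS length, which is not drawn.

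The level of Hmox1 (chr8:75820241-75827217, plus strand), the mRNA for heme breakdown, was highest in the lung-labelled library. Hmox1 had 0.434 RPKM in the brain-labelled library, 8.19 in the colon-labelled one, 4.37 in the heart-labelled one, 4.56 in the kidney-labelled one, 34.2 in the lung-labelled one and 0.905 in the small-intestine-labelled one. The lung-labelled library was 4.17-fold (95% interval 2.87 to 6.24) over the colon-labelled one and 7.82-fold (5.36 to 11.8) over the heart-labelled one. The libraries labelled colon, kidney and heart overlapped, and those labelled small intestine and brain, with 6 and 4 reads, were lowest. Markers of blood and vessels were high in the same library: the 5 red blood cell markers summed to 479 RPKM there and to 0.868 to 94.99 RPKM elsewhere, and the 3 endothelial markers to 1988 RPKM there and to 22.7 to 420 RPKM elsewhere. Macrophages take up old red blood cells, and their 5 markers summed to 84.9 RPKM there and to 19.0 to 94.5 RPKM elsewhere. The macrophage markers did not move as a group. Mrc1 and Cd68 were highest in the lung-labelled library, Adgre1 in the kidney-labelled one, Cd163 in the heart-labelled one and Csf1r in the small-intestine-labelled one. The part of these cell types in the Hmox1 level was not tested. The globin genes are near-identical copies, so their levels are uncertain.

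The metallothionein rows did not hold the consensus CDS of these genes. The Methods kept the transcript with the longest CDS of each gene, and for Mt1 and Mt3 that transcript reads on past a splice site, while for Mt2 it starts in another frame. The sequences below show the counted transcript (Mt1-203, Mt2-202, Mt3-203) above the transcript of the consensus CDS (Mt1-201, Mt2-201, Mt3-201). Bases after the shared leading ones are in capitals, which for Mt1 and Mt3 marks where the transcripts part. The Mt2 lines begin at different start codons, so their capitals mark no such point.
Mt1-203, bases 81 to 110: ctcctgcaagaagagTGAGTTGGGACACCT
Mt1-201, bases 81 to 110: ctcctgcaagaagagCTGCTGCTCCTGCTG
Mt2-202, bases 1 to 20: atggaTCCTGCTCCTGCGCT
Mt2-201, bases 1 to 20: atggaCCCCAACTGCTCCTG
Mt3-203, bases 84 to 113: gaactgcaagaagagTGAGTGCACCCCCCC
Mt3-201, bases 84 to 113: gaactgcaagaagagCTGCTGCTCCTGCTG

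The consensus CDSs had 20 cysteine codons each, of 61 codons in Mt1 and Mt2 and of 68 in Mt3. The counted CDSs had 22 of 132 codons in Mt1, 2 of 76 in Mt2 and 10 of 80 in Mt3. The counted CDS still held 83.3% of the 28-nt windows of the consensus CDS for Mt1, 82.1% for Mt2 and 40.1% for Mt3, and only 35.2%, 63.7% and 33.3% of its own windows lay in that CDS. A metallothionein can thus be compared with itself between libraries, and ratios between metallothioneins carry this difference in length.

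Mt1 (chr8:94905710-94906955, plus strand) and Mt2 (chr8:94898819-94900207, plus strand) are the widely expressed, metal-induced forms. Mt1 had 27.3 RPKM in the brain-labelled library, 30.3 in the colon-labelled one, 92.6 in the heart-labelled one, 20.0 in the kidney-labelled one, 33.6 in the lung-labelled one and 60.5 in the small-intestine-labelled one. The heart-labelled library was highest, 3.06-fold over the median of the others and 1.53-fold (95% interval 1.27 to 1.85) over the small-intestine-labelled one. The libraries labelled lung, colon, brain and kidney overlapped with their neighbours in the order.

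Mt2 was highest in the small-intestine-labelled library, not in the heart-labelled one. It had 6.19 RPKM in the brain-labelled library, 19.5 in the colon-labelled one, 41.8 in the heart-labelled one, 10.4 in the kidney-labelled one and 106 in the small-intestine-labelled one, and it was not listed in the lung-labelled one, where 3 reads would give 1.70 RPKM. The small-intestine-labelled library was 2.53-fold (95% interval 1.93 to 3.33) over the heart-labelled one and at least 62.0-fold over the lung-labelled one. The libraries labelled colon, kidney and brain overlapped with their neighbours.

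Per counted CDS length, the ratio of Mt1 to Mt2 was above 1 in 5 libraries, and its size moved with the length used. It was 4.41 (95% interval 2.57 to 8.14) in the brain-labelled library, 1.55 (0.915 to 2.74) in the colon-labelled one, 2.21 (1.72 to 2.88) in the heart-labelled one, 1.92 (1.12 to 3.45) in the kidney-labelled one and at least 19.8 in the lung-labelled one. In the small-intestine-labelled library it was 0.573 (0.464 to 0.707), from 183 and 184 reads. The interval of the colon-labelled library included 1. Per length of the consensus CDS, which is the same for both, every ratio was 1.74 times as large. The ratio of the small-intestine-labelled library was then 0.995 (0.806 to 1.23), whose interval included 1, and that of the colon-labelled library was 2.70 (1.59 to 4.76), whose interval did not. With either length the interval of the small-intestine-labelled library lay below those of the other 5.

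Mt3 (chr8:94879220-94881088, plus strand), the metallothionein known from brain, had reads almost only in the small-intestine-labelled library. It had 23.4 RPKM there (95% interval 16.96 to 31.6), from 43 reads. It had 1 read each in the libraries labelled heart and kidney, was listed at 0 in the brain-labelled one, and was not listed in those labelled colon and lung. In these last 3 libraries 3 reads would give 1.18 to 2.77 RPKM. The level in the small-intestine-labelled library was at least 19.9-fold over the brain-labelled one, set against 3 reads. Set against the 1 read of the kidney-labelled library it was 42.7-fold, with an interval of 7.26 to 1723, and these folds give no order between the brain- and kidney-labelled libraries. Neuron and astrocyte markers moved with it: the 3 neuron markers summed to 3074 RPKM in that library and to 1.53 to 37.0 RPKM elsewhere, and Gfap, a defining astrocyte marker, had 33.3 RPKM there and no reads in the other 5. Aqp4, another astrocyte marker, was highest in the kidney-labelled library at 403 RPKM. Their part in the Mt3 level was not tested.

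Metallothionein promoters are known for metal-responsive elements, which bind the zinc sensor Mtf1. The core was searched as TGCACNC or TGCGCNC on both strands of the 250 bases before each start in RefSeq (table build GRCm38.p6), where overlapping matches count separately. Entries for Fth1, Ftl1, Tfrc, Mt1, Mt2 and Mt3 were matched, and Trf, Slc40a1, Slc11a2 and Hmox1 were not matched. Each window was then found once in GRCm39, which gives the positions. At least 1 match was present in 21.4% of 32851 promoters, and at least 3 in 1.26%. The Mt2 window had 3 matches, the Mt1 window had 1, and the Mt3 window had none of these letters. The Mt1 window ended at chr8:94905716, and bases after it were not searched. These counts hold for the windows only and do not compare whole promoters. The matches are in capitals, on the plus strand of chromosome 8.
Mt1, chr8:94905683-94905712: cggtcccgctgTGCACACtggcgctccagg
Mt2, chr8:94899012-94899041: agcatcgcctcTGCACCCggcccctcgggc
Mt2, chr8:94899107-94899136: cgcagacccttTGCGCTCagctcctttgct
Mt2, chr8:94899185-94899214: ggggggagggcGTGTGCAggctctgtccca

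One of the 2 Tfrc windows also held 2 matches, which overlap. The part of any match in the levels was not tested.

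Set side by side, the roles took different shares of the summed RPKM of the 10 members. Storage made up 44.1% in the brain-labelled library, 18.6% in the colon-labelled one, 29.2% in the heart-labelled one, 32.3% in the kidney-labelled one, 19.7% in the lung-labelled one and 1.85% in the small-intestine-labelled one. Uptake ran from 45.0% in the brain-labelled library to 92.7% in the small-intestine-labelled one. Trf alone gave 42.8% to 96.7% of the members' reads, a measure that weights long CDSs and is unlike the shares of RPKM. In RPKM, Trf gave 142 of the 253 summed for uptake in the heart-labelled library. It gave 3241 of 3302 in the small-intestine-labelled one. Export was highest in the kidney-labelled library, at 4.64%, and at most 0.499% in the others. Metal buffering was highest in the heart-labelled library, at 24.1%, and 4.33% to 10.8% in the others, although its summed level was highest in the small-intestine-labelled one, at 189 RPKM. The storage sum lacks most of Ftl1, as described above. The metal buffering sum divides by the counted CDSs of Mt1, Mt2 and Mt3, of 396, 228 and 240 bases. The consensus CDSs have 183, 183 and 204 bases, so the share of metal buffering depends on the length used.

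Differences of this size were common among all mRNAs. Of the 10, 8 had at least 100 reads over the libraries, and Ftl1 (10 reads) and Mt3 (45 reads) did not. A library at least 4-fold over the median of the other 5 was found for 4 of the 8 (Trf, Slc40a1, Hmox1, Mt2), against 52.8% of 12558 mRNAs. With median-of-ratios size factors Mt1 passed too, at 4.05-fold in the heart-labelled library. A library at least 4-fold under it was found for 5 (Trf, Slc40a1, Slc11a2, Hmox1, Mt2), against 52.2%. By library, 2 were higher in the small-intestine-labelled one (Trf, Mt2; 18.6% of all mRNAs), 1 in the heart-labelled one (Mt2 at 4.02-fold; 10.8%), 1 in the kidney-labelled one (Slc40a1; 11.6%) and 1 in the lung-labelled one (Hmox1; 17.7%). None was higher in those labelled brain (13.9%) and colon (12%). The highest library was at least 10-fold over the lowest for 5 of the 8, against 63.8%, with a median of 46.8-fold for the 8 and 21.8-fold for all mRNAs, both with 3 reads as the floor.

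The libraries labelled heart and lung, whose markers matched, were also compared alone. The heart-labelled library was at least 2-fold higher for Mt1, Slc40a1, Slc11a2 and Mt2, which is 4 of 8 members against 24.9% of 12558 mRNAs. All of these but Mt1 rest on 0 reads in the lung-labelled library. Of 5934 mRNAs over 2 RPKM in each of the other 5 libraries, 187 had no reads there, against 3 of 5760 in the heart-labelled one. The lung-labelled library was at least 2-fold higher for Trf and Hmox1, against 38.2%. The ratio of heart to lung was 0.284 (95% interval 0.271 to 0.297) for Trf, 0.128 (0.0849 to 0.187) for Hmox1 and 2.75 (2.19 to 3.48) for Mt1. Against 3 reads it was at least 12.3 for Slc40a1, 19.2 for Slc11a2 and 24.6 for Mt2, which had no reads in the lung-labelled library. The exact lower limits for these genes were 9.52, 15.2 and 19.5. Tfrc was 1.90-fold (1.76 to 2.05) higher in the heart-labelled library, and for Fth1 the interval of 0.953 to 1.18 included 1, and in TPM the ratio was 0.890. The median ratio was 2.32 for the 8 members and 0.785 for all mRNAs. With median-of-ratios size factors these ratios were 1.55 times as large, with 0.441 for Trf, 0.199 for Hmox1, 1.65 for Fth1, 2.95 for Tfrc and 4.28 for Mt1.

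**Figure D4:**
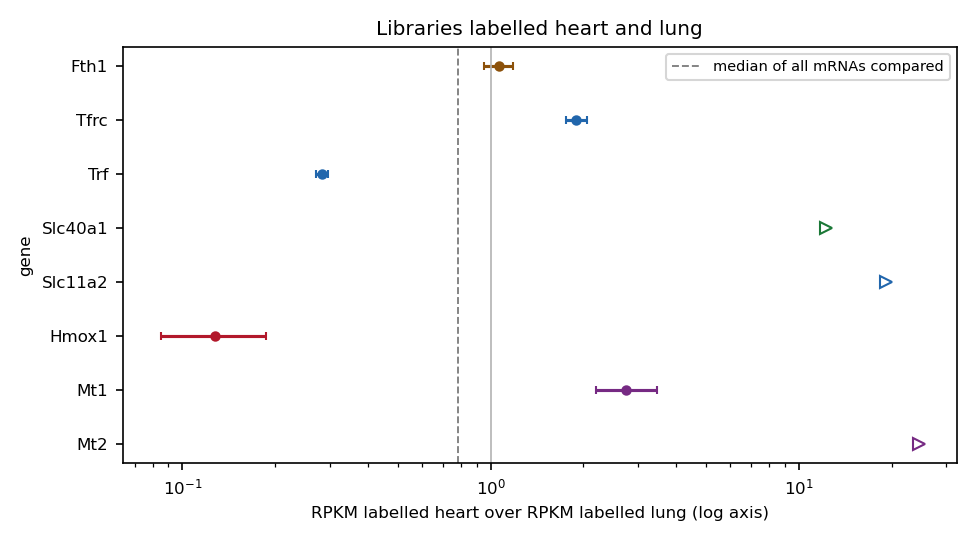
Ratio of RPKM in the heart-labelled library over the lung-labelled one (log axis) for the 8 members with at least 100 reads, with exact Clopper-Pearson 95% intervals. Open triangles are lower bounds for mRNAs without reads in the lung-labelled library, and the dashed line is the median of all mRNAs, 0.785. Colours repeat the roles of the plot of all members. Trf and Hmox1 lie to the left of it and the other 6 to the right.

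The rest of the pathway showed a similar range. Of 61 listed genes on the iron, heme, zinc and copper lists that are not members, 51 had at least 100 reads. Of these, 29 (56.9%) had a library at least 4-fold over the median of the others, against 52.8% of 12558 mRNAs. For 34 (66.7%) the highest library was at least 10-fold over the lowest, against 63.8%. Ferritin storage and turnover varied least: none of its 4 counted genes passed the 4-fold rule in either direction. Pcbp1 and Pcbp2, chaperones that deliver iron to ferritin, ran from 82.8 to 164 and from 109 to 223 RPKM, and Ncoa4, the receptor for ferritin breakdown, from 13.9 to 27.0 RPKM.

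Of 11 counted uptake genes, members included, 5 had a library 4-fold over the median of the others and 9 a library 4-fold under it. Over all 12558 mRNAs these shares were 52.8% and 52.2%, which holds for this list and those below. The counts per list are small and are not read as traits of a list. The receptors Lrp2 and Cubn, which retrieve proteins from the tubule and gut, were highest in the libraries labelled colon (2731 RPKM) and brain (269 RPKM), those with kidney tubule and enterocyte markers. Lcn2, which binds bacterial iron carriers, had 93.6 RPKM in the lung-labelled library and at most 0.611 RPKM elsewhere. Steap2, a metal reductase, had 102 RPKM in the colon-labelled library. All 3 export genes passed the rule upwards and 2 downwards. The ferroxidase Heph was highest in the brain-labelled library at 71.7 RPKM, the ferroxidase Cp in the lung-labelled one at 106.9 RPKM, and Slc40a1 in the kidney-labelled one.

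Of 8 counted genes of iron control, 6 passed upwards and 4 downwards, beside 52.8% and 52.2% of all mRNAs. Hjv, a co-receptor that raises hepcidin, had 15.6 RPKM in the heart-labelled library and 0.529 RPKM or no reads elsewhere. Hamp2, a close copy of the hepcidin gene whose reads are therefore uncertain, had 150 RPKM in the colon-labelled library, and Epas1, the factor HIF-2alpha, 432 RPKM in the lung-labelled one. Of 10 counted genes of heme breakdown and transport, 5 passed upwards and 7 downwards. The hemoglobin binder Hp had 344 RPKM in the lung-labelled library, where Hmox1 was highest too, and the heme binder Hpx 12.4 RPKM in the kidney-labelled one. Abcg2, a porphyrin exporter, reached 193 RPKM in the colon-labelled library and Lrp1, a hemopexin receptor, 203 RPKM in the lung-labelled one. Slc48a1, a heme transporter, had 78 reads in all and 14.0 RPKM in the small-intestine-labelled library.

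Of 7 counted genes of heme synthesis, 3 passed upwards and 5 downwards, beside 52.8% and 52.2% of all mRNAs. Alas1, the first enzyme outside red blood cells, ran from 77.5 to 985 RPKM. Alas2 had 75.4 RPKM in the lung-labelled library, Urod reached 294 RPKM and Cpox 53.4 RPKM in the colon-labelled one, and Fech 140 RPKM and Alad 10.99 RPKM in the heart-labelled one. Among genes of iron-sulfur cluster assembly, the scaffold Iscu and the sulfur donor Nfs1 had 665 and 38.0 RPKM in the colon-labelled library. Of 11 counted genes of zinc and copper handling, 8 passed upwards and 6 downwards. The zinc importers Slc39a4 and Slc39a5 had 81.2 and 146 RPKM in the brain-labelled library, the copper pump Atp7b 34.1 RPKM in the lung-labelled one, and the copper chaperones Atox1 and Ccs 3855 and 110 RPKM in the colon-labelled one.

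The mRNAs whose levels followed each member most closely were ranked by Pearson's r of log2(RPKM + 1) over the 6 libraries. These are descriptions over 6 points, which share depth and library among all mRNAs. For Fth1 they were Gas1 (0.987), Clic1 (0.985) and Rcn3 (0.980), for Tfrc Cav3 (0.994), Htra3 (0.977) and Ndufa13 (0.977), and for Trf Ss18l1 (0.999), D630045J12Rik (0.991) and Syt3 (0.990). For Slc40a1 they were Slc35a1 (0.979), Thbs4 (0.965) and 9130008F23Rik (0.962). For Slc11a2 they were Sgpp1 (0.994), Tmem9b (0.993) and Egln2 (0.992), and for Hmox1 Slc25a32 (0.996), Adgra3 (0.995) and Dock1 (0.992). For Mt1 they were Rrn3 (0.9997), Zfpm2 (0.987) and Fez2 (0.984), and for Mt2 Sap30l (0.985), Bri3bp (0.985) and Bap1 (0.984). No mRNA appeared for more than 1 member, so Mt1 and Mt2 did not share a nearest neighbour.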

How the data were processed

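Ribo-seq was performed on 6 mouse tissues, with 1 library per tissue. For every library the authors deposited a table with the RPKM of each protein-coding mRNA. Per the labels, cutadapt, STAR and GRCm39 were used, with no versions given. The Methods, written for the macrophage libraries and taken to hold here, describe the transcript with the longest CDS of each gene, removal of multi-mapped reads and counting on the CDS. Reads were recovered as RPKM multiplied by CDS length, divided by the smallest non-zero product of the library, which was taken as 1 read. They reached 4504853 to 10635031 per library. Gene names, coordinates and CDSs came from GRCm39 with GENCODE M39. Sequence was found for 99.3% of the listed mRNAs. Counts of fold calls used mRNAs with at least 100 reads over the libraries, with levels raised to a floor of 3 reads. Ratios of single members were given whatever their reads, with counting intervals, and as a value against 3 reads where the denominator had none. Recovery of reads and fold calls were tested on simulated data. The genes named were the 10 members, list genes over 100 RPKM or among the 3 with the largest fold of their list, the 3 most similar mRNAs of each member, and markers. A gene that the rule names is not reported here. The members and lists were chosen with earlier results of these data known. Alternatives covered the library total, TPM, size factors, thresholds, a pseudocount of 1 RPKM, the minimum of reads, the reference library and the windows in place of CDS length. Leaving out libraries and the consensus CDS length were added after seeing the data. Python 3.11.15 with numpy 2.4.6, pandas 2.3.3, scipy 1.17.1 and matplotlib 3.10.9 was used.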

Additional observations from a re-analysis of the deposited data

How the results depend on the processing

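No paired analysis was possible because each labelled tissue has 1 library. Over the library totals (Kri1 or mitochondrial mRNAs left out, size factors, TPM), the counts of members called stayed within 1.5 times. Of 67 recomputed counts, 61 did so and 6 did not. At a fold of 4, 1 member was higher in the library labelled lung than in that labelled heart. With a pseudocount of 1 RPKM, 3 members were 4-fold lower in a library. With at least 10 reads in every library, 1 member was 4-fold higher and 1 was 4-fold lower. Shares over all mRNAs are not given for these settings, so their counts are not read as a result about the members. With each library left out in turn, 3 to 4 members were 4-fold higher, against 44.3% to 51.3% of all mRNAs. In the same settings 3 to 5 were 4-fold lower, against 48.4% to 55.8%, and 4 to 5 had a 10-fold spread, against 54.3% to 61.8%. The lowest spread count came without the library labelled lung, which ends the call of Slc11a2, or without that labelled small intestine, which ends that of Trf. The value of 3 lower members came without the library labelled lung. With the libraries labelled heart and lung alone, 3 members had a 10-fold spread (Slc40a1, Slc11a2, Mt2), against 18.6% of all mRNAs. Single values moved beyond their counting interval in 29 of 94 cases, with no reversal of a called direction. Few reads lie behind Ftl1, of whose CDS most windows are shared with Ftl1-ps1, behind Mt3 outside the library labelled small intestine, and behind Slc40a1 in that labelled brain, which had the most reads in total.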
